A study of Mus musculus with 8 samples.

Results

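TREM receptors and a set of myeloid C-type lectins were followed in alveolar macrophages, which live in the air spaces of the mouse lung. The set held 9 genes, Trem1, Trem2, Tyrobp, Clec4d, Clec4e, Clec4n, Clec5a, Clec7a and Clec9a, taken by their symbols from 48709 genes in the deposited table, and all 9 were among the 11083 genes with enough counts to be tested. Batf2-/- cells, from animals without the transcription factor BATF2, gave 4 libraries. They were set against 4 libraries of WT animals of the strain C57BL/6J. In both genotypes the isolated cells were exposed to interferon gamma (IFNg, 10 ng/mL, 4 h) and afterwards to Klebsiella pneumoniae supernatant (20%, 6 h), a treatment given by the submitters as inducing an M1-like state. Each library holds cells pooled from 4 mice, and errors therefore describe pools, not single animals. No unstimulated cells were analysed here. The sources used here do not state the animals' age, the kind of Batf2 allele or its backcross. The question posed by the design was how loss of BATF2 affects macrophage polarization.

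These genes encode surface receptors by which myeloid cells sense microbes and damaged cells, together with one shared adaptor. TREM1, TREM2 and CLEC5A have almost no signaling tail of their own and pair with DAP12, the product of Tyrobp, whose tyrosine motif recruits the kinase SYK. The Dectin-2 family receptors encoded by Clec4e (Mincle), Clec4d (MCL) and Clec4n (Dectin-2) pair with another adaptor, the Fc receptor gamma chain encoded by Fcer1g. Dectin-1 (Clec7a) and DNGR-1 (Clec9a) carry a single tyrosine motif in their own tails. All of these routes meet at SYK. In many myeloid cells some of them, though not all, lead on to the CARD9, BCL10 and MALT1 complex, which drives NF-kB. Alveolar macrophages are known for Dectin-1, the receptor for fungal beta-glucans, whereas Clec9a is best known as a marker of type 1 conventional dendritic cells.

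Of the 9 genes, 1 rose in Batf2-/- cells (Trem1), 1 fell (Clec9a) and 7 did not pass an adjusted p of 0.05 in edgeR's quasi-likelihood test across all genes. Trem1 was 3.73-fold higher and Clec9a 9.61-fold lower. Both lay near the bottom of the expression range, while the abundant members, Clec4e, Clec7a and Tyrobp, stood at nearly the same mean level in both genotypes. Among all tested genes 1.11% passed, 0.550% higher and 0.559% lower in Batf2-/-, and 8.50% had an unadjusted p under 0.05, as Trem1 and Clec9a did among the members. The median log2 fold change was -0.0305 over the 9 genes and -0.0149 over all tested genes. The members were chosen with earlier results of these data known, so their share of calls is a description.

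The sequences before the transcription start are shown for the genes that changed, Trem1 and Clec9a, and for a neighbour or relative of each family that did not pass, Trem2 and Clec4e. They were taken from RefSeq (GRCm38.p6), whose promoter table held 7 of the 9 members (all but Tyrobp and Clec4n). Each runs 5′ to 3′ on the strand of its gene over the 250 bases before the RefSeq start, and capitals mark letters that matched a searched motif.
Trem1, chr17:48232489-48232738, plus strand: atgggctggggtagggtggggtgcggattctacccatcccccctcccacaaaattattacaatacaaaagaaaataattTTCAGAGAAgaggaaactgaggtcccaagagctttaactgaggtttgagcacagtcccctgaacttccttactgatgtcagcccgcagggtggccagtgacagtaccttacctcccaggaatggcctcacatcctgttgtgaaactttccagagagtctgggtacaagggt
Clec9a, chr6:129408612-129408861, plus strand: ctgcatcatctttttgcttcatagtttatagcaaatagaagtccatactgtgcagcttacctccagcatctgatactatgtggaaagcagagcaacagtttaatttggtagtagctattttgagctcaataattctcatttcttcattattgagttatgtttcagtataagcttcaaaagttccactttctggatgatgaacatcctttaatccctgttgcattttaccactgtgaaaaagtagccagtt
Trem2, chr17:48346151-48346400, plus strand: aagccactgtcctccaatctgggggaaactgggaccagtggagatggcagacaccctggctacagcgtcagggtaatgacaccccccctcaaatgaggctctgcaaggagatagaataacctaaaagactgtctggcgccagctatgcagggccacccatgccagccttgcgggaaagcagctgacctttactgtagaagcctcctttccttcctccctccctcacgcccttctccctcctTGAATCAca
Clec4e, chr6:123289872-123290121, minus strand: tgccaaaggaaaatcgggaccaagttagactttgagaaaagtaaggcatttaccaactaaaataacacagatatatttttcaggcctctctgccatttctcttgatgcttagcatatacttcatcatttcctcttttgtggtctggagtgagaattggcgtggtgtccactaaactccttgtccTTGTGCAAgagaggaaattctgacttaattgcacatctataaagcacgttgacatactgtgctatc

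The search covered windows of 300 bases, 250 before and 50 after the start, on both strands. Its 6 letter patterns were modelled on sites of factors of the stimulation used here and of the BATF2 family. The AP-1 pattern TGANTCA, with any base in its middle, was found in the window of 1 member, Trem2. That match, TGAATCA, began 9 bases before the start. The forms known for BATF and JUN factors have C or G in the middle, where this match had A. The pattern, with any middle base, occurred in 7.81% of all 32851 promoter windows. In the Trem1 window the 1 match was to the interferon gamma-activated letters TTCNNNGAA, 171 bases before the start, found in 8.30% of all windows. For Clec4e it was to the C/EBP letters TTGCNNAA, 66 bases before the start (10.8% of windows), and a second such match in Trem2 lay beyond the start, outside the printed stretch. Clec4d held the interferon-stimulated response element (ISRE) on the minus strand at its start (3.44% of windows). No member window held TGACGTCA (1.79% of windows) or the NF-kB motif (0.411%), and the Clec9a, Clec7a and Clec5a windows held none of the 6 motifs. A match of letters describes the sequence and shows no binding.

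Total counts per library ranged from 31730041 to 39888022. Counts of Batf2 itself were 0 in all Batf2-/- libraries, against 4459 to 7361 in WT libraries. On the first principal component, which held 42.5% of the variance, values rose with table position in both genotypes. They ran from -34.95 to 28.87 over libraries 5 to 8 (Batf2-/-) and from -16.72 to 43.9 over libraries 1 to 4 (WT). Libraries 8 and 4, the last table column of each genotype, were the highest. The second component (24.2%) separated the genotypes, at -27.49 to -10.66 in Batf2-/- and 10.72 to 24.25 in WT. By Xist and Y-linked counts the pools were of both sexes, 2 female and 2 male in each genotype. The alveolar macrophage markers fixed for the check all had counts, 15 of 15. Their summed level was 8225 to 12911 CPM in Batf2-/- libraries and 6017 to 7237 CPM in WT libraries, without overlap. Such a sum is set mostly by its most abundant genes. Over the 14 tested markers the median log2 fold change was 0.0637. Of these 14, 1 rose in edgeR's test (Car4), and 4 had an unadjusted p under 0.05. CPM are TMM-scaled counts relative to library size, in the usual unit. Library numbers follow the table columns, 5 to 8 for Batf2-/- and 1 to 4 for WT. The columns carry no replicate number, but libraries at the same table position (5 and 1, 6 and 2, 7 and 3, 8 and 4) were of the same sex, and their deviations from the genotype means correlated at 0.598, 0.501, 0.272 and 0.759. A second fit therefore took table position as a block. It called 1390 genes, 12.5% of those tested, and its counts are given beside those of the fit with genotype only. The pairing was taken from these same data and not from the labels. Its p-values can therefore be too small, and every adjusted p given with the block is a description and no error rate. Block counts in the gene lists are to be read against that 12.5%, and DESeq2 counts against its 336 genes called in all. Counts of the fit with genotype only are to be read against 1.11%, and those at an unadjusted p under 0.05 against 8.50%. Among the alveolar macrophage markers the block called 3 higher (Car4, Ear2 and Plet1) and 2 lower (Siglecf and Pparg), and DESeq2 called 2 higher.

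**Figure D1:**
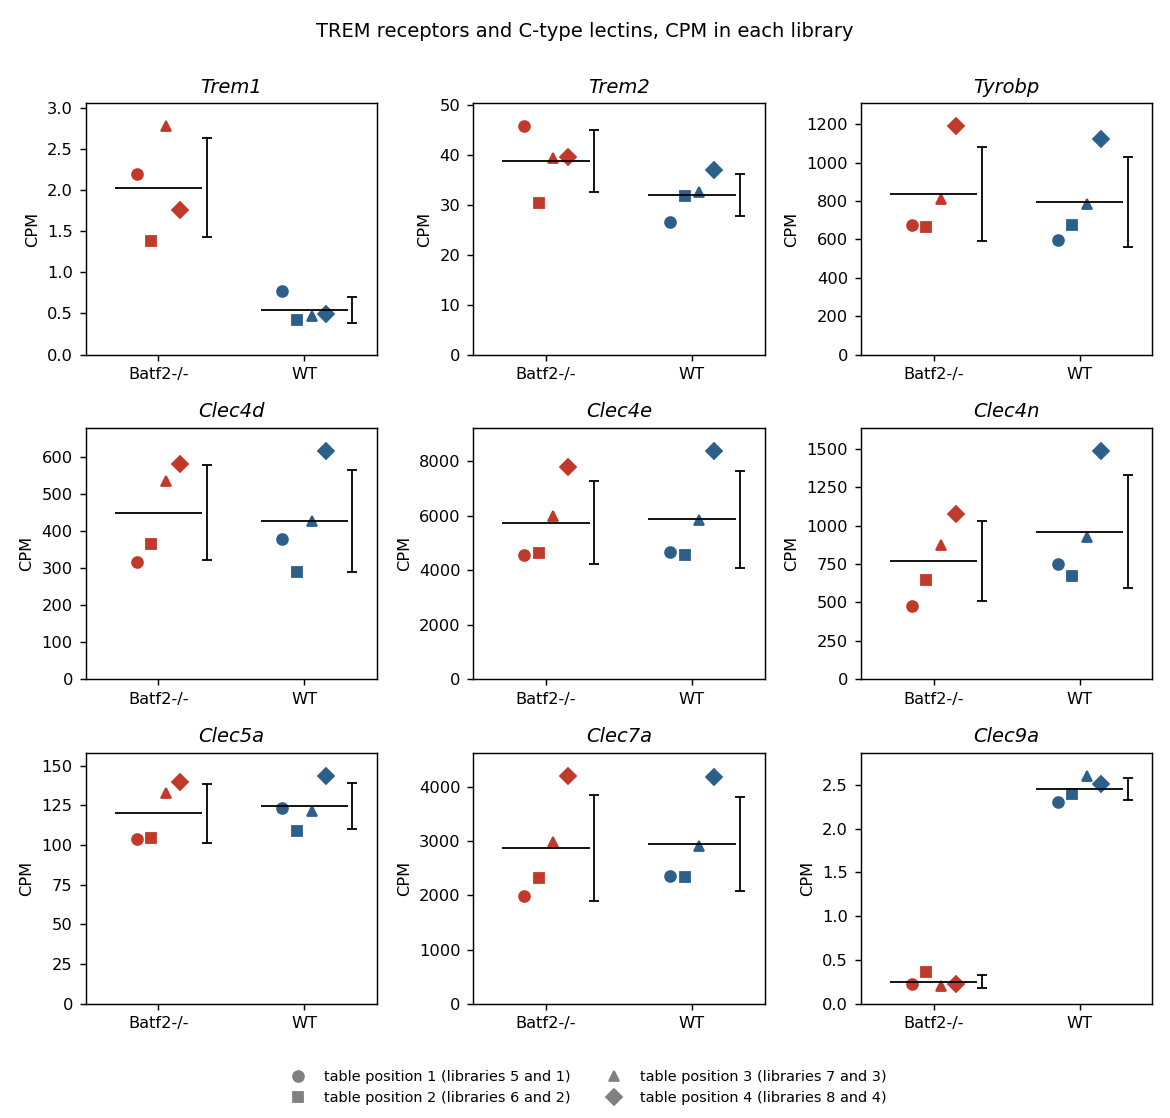
CPM of each of the 9 genes (y axis, linear from 0) in the 4 Batf2-/- and the 4 WT libraries; points are libraries, shaped by table position, horizontal lines are means and bars are SD. The groups do not overlap for Trem1 and Clec9a, and they overlap for the other 7 genes.

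Trem1, which encodes an amplifier of inflammatory signaling on myeloid cells, was higher in Batf2-/- macrophages. The gene (ENSMUSG00000042265) lies on GRCm38 chromosome 17 from 48232768 to 48246924 on the plus strand. It had 88, 50, 111 and 54 counts in Batf2-/- libraries 5 to 8, against 30, 16, 17 and 16 counts in WT libraries 1 to 4. As CPM these were 2.19, 1.38, 2.78 and 1.76 in Batf2-/- and 0.770, 0.425, 0.472 and 0.495 in WT. The lowest Batf2-/- library lay above the highest WT library, a separation that 6.33% of all tested genes showed, 3.03% with Batf2-/- higher and 3.29% with Batf2-/- lower. Means were 2.03 ± 0.599 CPM in Batf2-/- and 0.541 ± 0.156 CPM in WT (SD, n = 4 each), with a log2 fold change of 1.90 ± 0.28 (SE) and a 95% interval of 1.26 to 2.54 (edgeR adjusted p = 0.0141).

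The Trem1 call was lost without WT library 2 (edgeR adjusted p = 0.0576) or library 3 (adjusted p = 0.0816), while the log2 fold change stayed at 1.80 and 1.86. In those fits the genes called in all fell from 123 to 63 and 43. Without Batf2-/- library 5 or 7 Trem1 passed narrowly (adjusted p = 0.0420 and 0.0486). Within female pools Trem1 averaged 2.48 CPM in Batf2-/- and 0.621 CPM in WT, a ratio of 4.00 (2 pools each). Within male pools it averaged 1.57 CPM in Batf2-/- and 0.460 CPM in WT, a ratio of 3.41. An annotated gene on the opposite strand lies within Trem1 but shares no exon base with it. Neutrophils and monocytes are known to carry TREM1. The summed level of 12 neutrophil markers was 32.7 to 54.1 CPM in Batf2-/- libraries and 20.4 to 33.2 CPM in WT libraries. Of these, Ly6g, Retnlg, Mpo and Elane had 0 counts in all 8 libraries, S100a9 had 1 count in 1 library of each genotype, and none of the 4 markers tested passed with genotype only (1 at an unadjusted p under 0.05), while DESeq2 called 1 higher and the block 2 higher, S100a8 and Cxcr2. The summed level of 8 monocyte markers was 2.19 to 7.40 CPM in Batf2-/- and 1.89 to 4.03 CPM in WT. The part of other cells in the Trem1 difference was not tested. In bulk samples more cells of a type and more RNA per cell cannot be told apart.

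Trem2 encodes a receptor for lipids and lipoproteins on tissue macrophages and microglia, and its level did not pass the test. It stood at 45.8, 30.5, 39.3 and 39.6 CPM in Batf2-/- libraries 5 to 8, against 26.5, 31.9, 32.5 and 36.9 CPM in WT libraries 1 to 4. The groups overlapped, because library 6 (Batf2-/-) lay below 3 of the WT libraries. Means were 38.8 ± 6.30 CPM in Batf2-/- and 32.0 ± 4.27 CPM in WT, with a 95% interval of the fold change from 0.962 to 1.53 (edgeR adjusted p = 0.755). Within female pools the ratio of Batf2-/- to WT was 1.44, and within male pools it was 1.02. Trem1 and Trem2 lie in the same gene cluster on chromosome 17, Trem2 (ENSMUSG00000023992) running from 48346401 to 48354147 on the same strand.

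Per length, Trem2 exceeded Trem1 in every library, by 12.1 ± 2.36-fold in Batf2-/- libraries (8.58 to 13.6) and 38.3 ± 11.7-fold in WT libraries (20.9 to 45.4). Those ranges did not overlap, and no test was made of the ratio.

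The other TREM genes of the cluster were lowly expressed. Of the 7 listed TREM and TREM-like genes, 6 were in the table and 4 were tested, with 1 higher in Batf2-/- (Trem1), none lower and a median log2 fold change of 0.51, with the same counts under the block. Treml2 stood at 6.85, 4.72, 5.65 and 4.08 CPM in Batf2-/- libraries, against 2.49, 4.36, 3.16 and 3.07 CPM in WT libraries, and the groups overlapped through libraries 8 and 2 (edgeR adjusted p = 0.250). Trem3, the gene next to Trem1, was below the limit for testing and is given here after its values were seen. It had 11, 8, 9 and 16 counts in Batf2-/- libraries, against 4, 5, 5 and 4 counts in WT libraries.

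Tyrobp, the DAP12 adaptor that TREM1, TREM2 and CLEC5A need at the cell surface, did not differ beyond the spread between pools. It had 677, 665, 809 and 1191 CPM in Batf2-/- libraries 5 to 8, against 598, 673, 786 and 1125 CPM in WT libraries 1 to 4. Both genotypes had their highest value in the last table column. The fold change was 1.05, with a 95% interval of 0.718 to 1.54 (edgeR adjusted p = 1.00). Fcer1g, the gamma-chain adaptor, stood at 739 ± 49.7 CPM in Batf2-/- and 695 ± 61.3 CPM in WT (adjusted p = 1.00). None of the 3 ITAM adaptor genes listed passed in edgeR, with or without the block, or in DESeq2, and 0 had an unadjusted p under 0.05.

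Clec5a, also called MDL-1, is a DAP12-coupled lectin known as a receptor for flaviviruses. Its 104, 105, 133 and 139.6 CPM in Batf2-/- libraries lay across the 124, 109, 122 and 144 CPM of the WT libraries. The interval of its fold change was the tightest of the 7 genes that did not pass, 0.776 to 1.20 (edgeR adjusted p = 1.00). Of 9 tested genes for other DAP12-coupled receptors none passed with genotype only or in DESeq2 (2 at an unadjusted p under 0.05), and 2 were called higher with the block, Sirpb1a and Sirpb1b. Cd300e stood at 0.739 ± 0.143 CPM in Batf2-/- and 1.24 ± 0.276 CPM in WT (adjusted p = 0.277), and Sirpb1a at 10.97 ± 2.15 CPM in Batf2-/- and 8.69 ± 0.555 CPM in WT (adjusted p = 0.563).

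**Figure D2:**
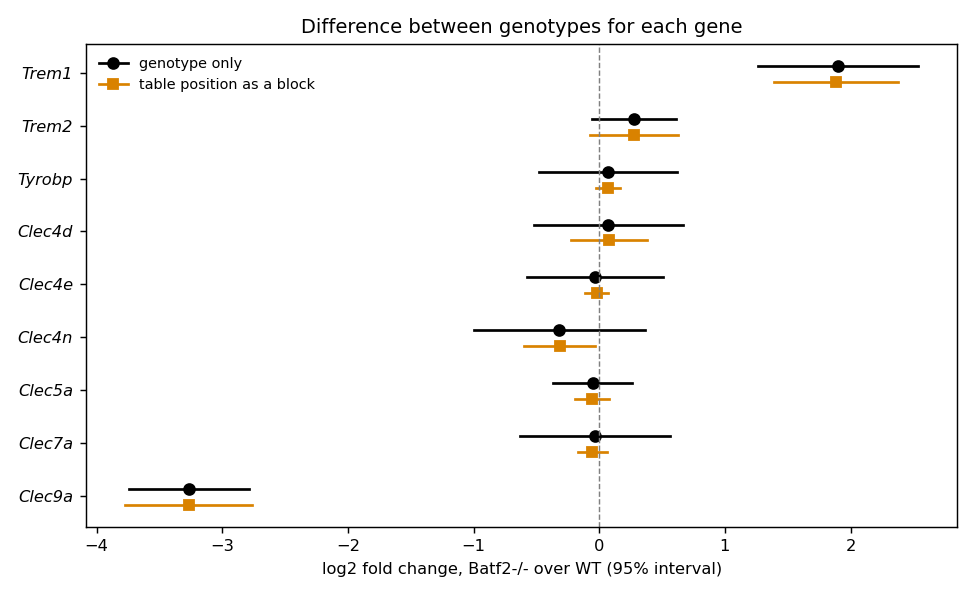
Log2 fold change of Batf2-/- over WT (x axis) with 95% intervals for each gene, from the fit with genotype only (circles) and with table position added as a block (squares). Trem1 lies at 1.90 and Clec9a at -3.27, and the intervals of the other 7 genes include 0 in the fit with genotype only. With the block the interval of Clec4n does not include 0.

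The Dectin-2 family members were abundant and did not pass. Clec4e, which encodes Mincle, a receptor for mycobacterial cord factor and for material from dying cells, had the highest counts of the 9 genes. It reached 4556, 4631, 5991 and 7793 CPM in Batf2-/- libraries 5 to 8, against 4674, 4555, 5849 and 8384 CPM in WT libraries 1 to 4. The values of the genotypes interleaved, with a fold change of 0.979 and a 95% interval of 0.673 to 1.42 (edgeR adjusted p = 1.00). The gene lies on chromosome 6 from 123281789 to 123289870 on the minus strand.

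Clec4d encodes MCL, a partner that helps bring Mincle to the surface, and it begins next to Clec4e at 123262111 on the opposite strand. It had 316, 366, 536 and 580.4 CPM in Batf2-/- libraries, against 379, 288, 427 and 617 CPM in WT libraries, with a fold change of 1.05 and an interval of 0.698 to 1.58. Clec4n, the Dectin-2 receptor for fungal mannans, had 477, 648, 871 and 1078 CPM in Batf2-/- libraries, against 750.5, 671, 928 and 1486 CPM in WT libraries. Its groups overlapped, its fold change was 0.801 with an interval of 0.500 to 1.28, and it did not pass (edgeR adjusted p = 1.00).

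The Dectin-2 family members were also set against each other within each library. Per length, Clec4n over Clec4d was 1.90 ± 0.171 in Batf2-/- libraries (1.70 to 2.09) and 2.50 ± 0.214 in WT libraries (2.23 to 2.71). Clec4n over Clec4e was 0.462 ± 0.0646 in Batf2-/- libraries and 0.563 ± 0.0432 in WT libraries, and here too the ranges did not overlap (0.366 to 0.509 and 0.515 to 0.620). These ratios were chosen after the values were seen and were not tested. Clec4e over Clec4d, 4.16 ± 0.444 in Batf2-/- and 4.46 ± 0.464 in WT, overlapped.

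Of 9 listed genes of the Dectin-2 cluster, 6 were tested and none passed in either direction with genotype only (1 at an unadjusted p under 0.05), with a median log2 fold change of -0.019. The block and DESeq2 each called 1 lower. Clec4a2, which encodes the inhibitory receptor DCIR, came nearest. It had 2.04, 1.77, 2.25 and 2.94 CPM in Batf2-/- libraries, against 3.88, 3.06, 4.08 and 4.55 CPM in WT libraries, without overlap (edgeR adjusted p = 0.117, or 0.00181 with the block).

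Clec7a, the Dectin-1 gene, and Clec9a, the DNGR-1 gene, lie close together in the Dectin-1 cluster of chromosome 6. Clec7a (ENSMUSG00000079293; 129461591 to 129472779, minus strand) had 1982, 2312, 2982 and 4209.8 CPM in Batf2-/- libraries 5 to 8, against 2358, 2339.7, 2905 and 4177 CPM in WT libraries 1 to 4. Its values interleaved, with a fold change of 0.975 and a 95% interval of 0.644 to 1.48 (edgeR adjusted p = 1.00).

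Clec9a (ENSMUSG00000046080; 129408862 to 129424763, plus strand) encodes a receptor for actin filaments exposed by dead cells, and it was lower in Batf2-/- cells. It had 9, 13, 8 and 7 counts in Batf2-/- libraries 5 to 8, against 90, 90, 94 and 81 counts in WT libraries 1 to 4. As CPM these were 0.224, 0.359, 0.200 and 0.228 in Batf2-/- and 2.31, 2.39, 2.61 and 2.51 in WT. Every Batf2-/- library lay below every WT library. Means were 0.253 ± 0.0717 CPM in Batf2-/- and 2.45 ± 0.130 CPM in WT (SD, n = 4 each), with a log2 fold change of -3.27 ± 0.21 (SE) and a 95% interval of -3.75 to -2.78 (edgeR adjusted p = 1.20e-04). The call held in all 18 alternatives that gave a value, with adjusted p between 2.60e-23 and 0.00168. Clec9a was 11.6-fold lower in Batf2-/- within female pools and 8.35-fold lower within male pools.

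Of the other genes known from the dendritic cells that Clec9a usually marks, Xcr1 and Flt3 were at or near 0 in both genotypes. Xcr1, the other defining marker of type 1 dendritic cells, had 3, 0, 0 and 0 counts in Batf2-/- libraries, against 4, 2, 4 and 2 counts in WT libraries. Flt3, the growth factor receptor of dendritic cells, had 6, 1, 3 and 2 counts in Batf2-/- libraries, against 0, 2, 1 and 2 counts in WT libraries. The summed level of 12 conventional dendritic cell markers was 39.0 to 67.3 CPM in Batf2-/- and 29.7 to 47.2 CPM in WT, most of it from Wdfy4, and Cd209a, known from other dendritic cells, had 0 counts throughout. None of the 5 tested passed with genotype only (2 at an unadjusted p under 0.05), while DESeq2 and the block each called 1 higher and 1 lower, in the block Zbtb46 and Cadm1. Cadm1, another gene of type 1 dendritic cells, stood at 2.13 ± 0.351 CPM in Batf2-/- and 3.44 ± 0.502 CPM in WT without overlap (edgeR adjusted p = 0.125). The part of such cells in the Clec9a difference was not tested.

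The exons of Clec9a share 184 bases with annotated exons of Clec1b on the same strand, so reads there could be counted for either gene. Clec1b, the CLEC-2 gene, did not follow Clec9a. It stood at 12.5 ± 1.43 CPM in Batf2-/- and 13.2 ± 0.837 CPM in WT (edgeR adjusted p = 1.00).

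A second lectin of the cluster fell. Clec12a, the gene of an inhibitory receptor for uric acid crystals (chromosome 6, 129342691 to 129365303), had 99, 79, 75 and 96 counts in Batf2-/- libraries 5 to 8, against 198, 184, 196 and 250 counts in WT libraries 1 to 4. That is 2.41 ± 0.536 CPM in Batf2-/- and 5.79 ± 1.32 CPM in WT, without overlap and 2.40-fold lower (edgeR adjusted p = 0.0221). The call was lost without library 3, 5, 6 or 7 (adjusted p from 0.0642 to 0.107). Of 10 listed genes of the Dectin-1 cluster, 7 were tested, 2 fell (Clec9a and Clec12a) and none rose, with a median log2 fold change of -0.079. Among all tested genes 0.559% were lower. Clec9a was chosen with earlier results of these data known, so the count is a description and no result about the cluster.

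**Figure D3:**
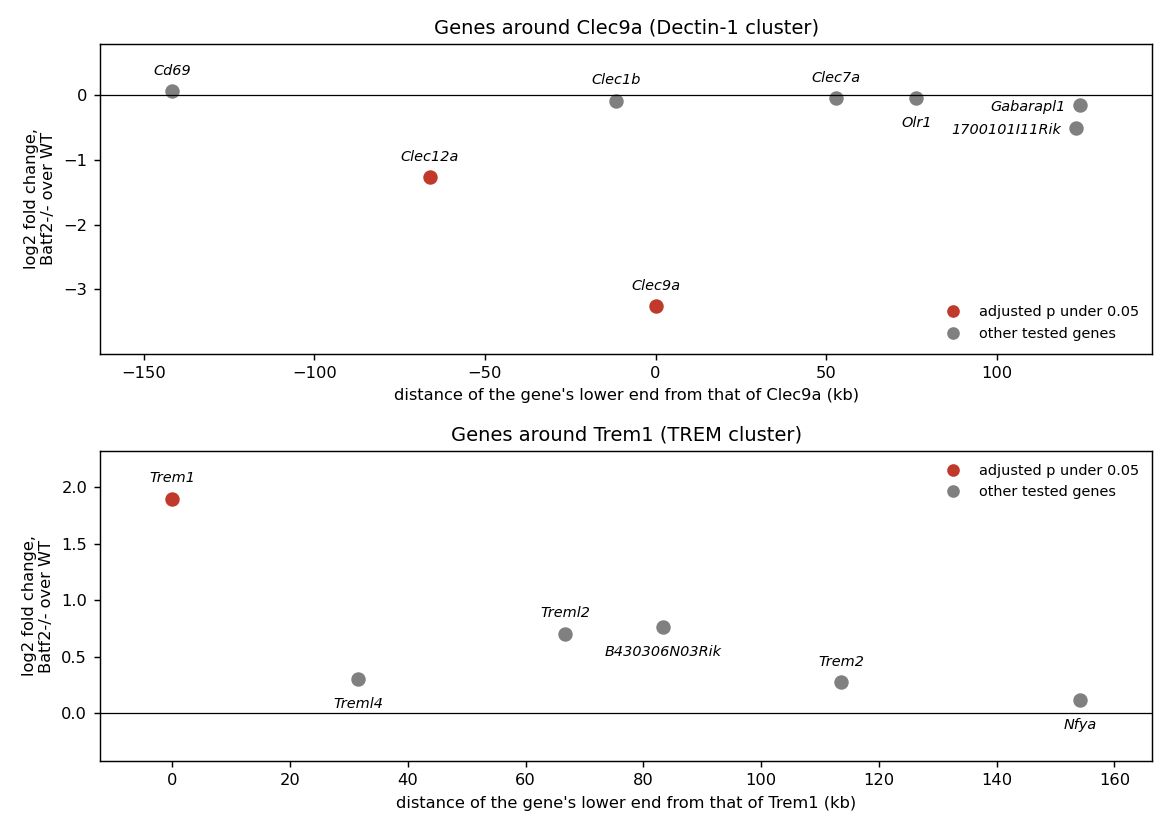
Log2 fold change of Batf2-/- over WT (y axis) for tested genes within 150000 bases of Clec9a (top) and of Trem1 (bottom), by distance of each gene's lower end in kb (x axis). Clec9a and Clec12a fell while Clec1b between them and Clec7a lay near 0, and among the genes around Trem1 only Trem1 passed.

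Levels can be set side by side only per length, here as CPM per kilobase of merged exons (RPKM). Tyrobp at 1253 ± 368, Clec4e at 1157 ± 306 and Clec7a at 1089 ± 373 RPKM led in Batf2-/- libraries, as they did in WT libraries at 1193 ± 349, 1181 ± 358 and 1116 ± 327 RPKM. Their ranges over libraries overlapped in each genotype, and they ranked 33, 36 and 39 in Batf2-/- and 36, 38 and 43 in WT among 11070 genes with a length. Clec4n came next at 541 ± 184 RPKM in Batf2-/- and 675 ± 259 RPKM in WT, overlapping Clec7a in each genotype. Clec4d followed at 281 ± 80.4 RPKM in Batf2-/- and 267 ± 86.6 RPKM in WT, and its range met that of Clec4n in Batf2-/- but not in WT.

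Clec5a, at 31.3 ± 4.86 RPKM in Batf2-/- and 32.4 ± 3.75 RPKM in WT, and Trem2, at 7.84 ± 1.27 RPKM in Batf2-/- and 6.46 ± 0.863 RPKM in WT, each stood clear of their neighbours. The last places were exchanged between genotypes. Trem1 at 0.677 ± 0.200 RPKM exceeded Clec9a at 0.0768 ± 0.0218 RPKM in Batf2-/- libraries, whereas in WT libraries Trem1 at 0.180 ± 0.0520 RPKM lay below Clec9a at 0.745 ± 0.0395 RPKM, with no overlap of ranges in either. Merged exons join all annotated transcripts of a gene, any retained introns included, which can lower RPKM for genes such as Trem2 and Clec4e. Together the 9 genes took 0.825% to 1.45% of all counts in Batf2-/- libraries and 0.896% to 1.48% in WT libraries.

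**Figure D4:**
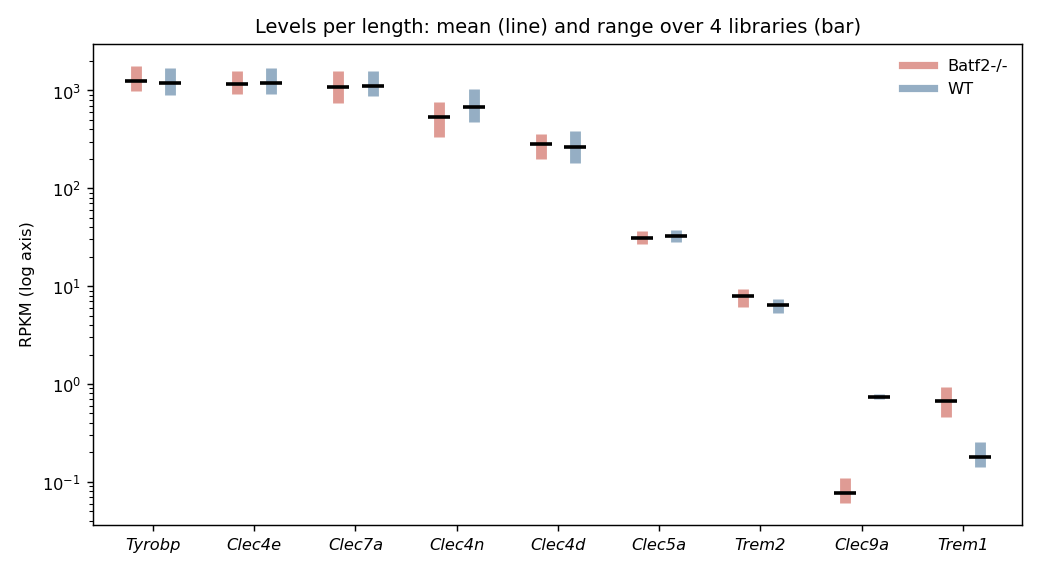
RPKM (y axis, log scale) of each gene in Batf2-/- and WT libraries, with black lines for means and coloured bars for the range over 4 libraries. Levels run from about 1253 RPKM for Tyrobp to 0.0768 RPKM for Clec9a in Batf2-/-, and Trem1 and Clec9a change places between the genotypes.

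The abundant members varied together over the libraries, within each genotype. Library 8 exceeded the mean of libraries 5 to 7 (Batf2-/-) by 1.43-fold for Clec4d, 1.54-fold for Clec4e, 1.62-fold for Clec4n, 1.66-fold for Tyrobp and 1.74-fold for Clec7a. For library 4 against the mean of libraries 1 to 3 (WT) the ratios were 1.69 for Clec4d, 1.67 for Clec4e, 1.90 for Clec4n, 1.64 for Tyrobp and 1.65 for Clec7a. The median over all tested genes was 0.967 in Batf2-/- and 0.980 in WT. In both genotypes 13.9% of tested genes were at 1.4 or above, as these 5 were. That limit was not planned and lies just under the lowest ratio of the 5 genes. The share is therefore a description and no test of them. Clec5a was 1.23-fold and 1.22-fold higher in libraries 8 and 4, and Trem2 1.03-fold and 1.22-fold. Trem1, at 0.832 and 0.891, and Clec9a, at 0.875 and 1.03, did not share this rise.

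The coefficient of variation within a genotype was between 26.4% and 38.3% for Clec4d, Clec4e, Clec4n, Clec7a and Tyrobp, between 11.6% and 16.2% for Clec5a and Trem2, and 29.6% in Batf2-/- and 28.8% in WT for Trem1. For Clec9a it was 28.4% in Batf2-/-, where counts were lowest, and 5.30% in WT. With table position as a block the 95% interval of the Clec4e log2 fold change narrowed to between -0.11 and 0.071, and that of Clec7a to between -0.17 and 0.062. Clec4n came nearest of the 7 genes that did not pass, at a log2 fold change of -0.31 ± 0.11 (SE, adjusted p = 0.154). Its 95% interval in that fit, -0.60 to -0.031, did not include 0 (edgeR unadjusted p = 0.0354). No member's call changed with the block.

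**Figure D5:**
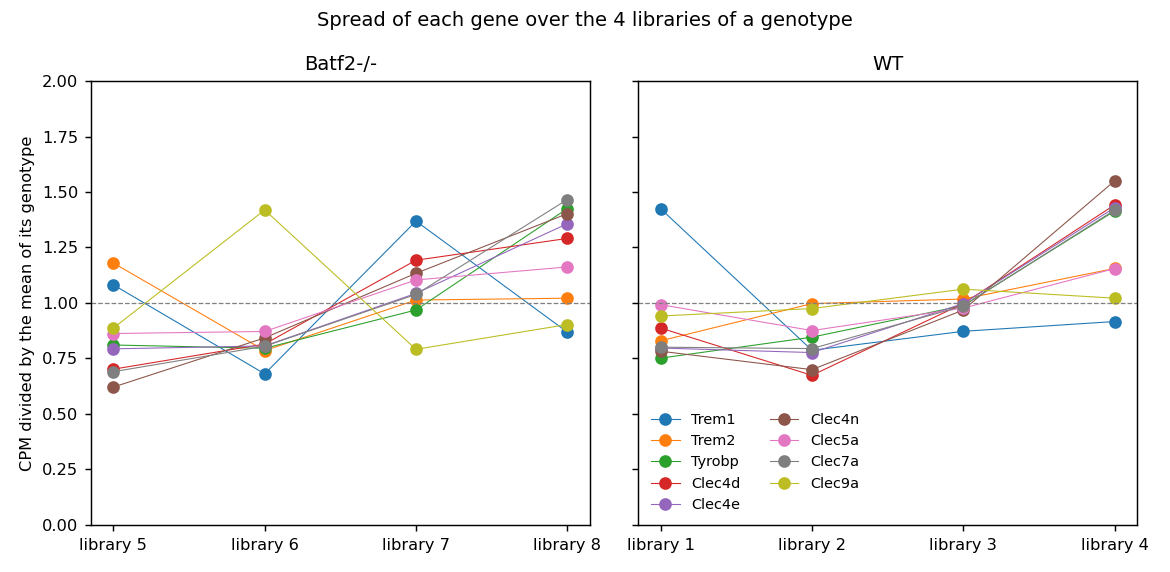
CPM of each gene divided by the mean of its genotype (y axis) in the 4 Batf2-/- libraries (left) and the 4 WT libraries (right); thin lines only join the points of a gene. Clec4d, Clec4e, Clec4n, Clec7a and Tyrobp are highest in libraries 8 and 4, while Trem1 and Clec9a are not.

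The genes whose log2 CPM were most like those of a member were found by Pearson's r over the 8 libraries, among genes of at least 2 mean log2 CPM, as a description. Clec4e was closest to Ociad1 (r = 0.999), Ube2f (0.999) and Srp14 (0.997), and Clec7a to Polr2f (0.999), Snrpd3 (0.998) and Thoc6 (0.998). Such likeness was common, with 1862 of 8493 genes above 0.9 for Clec4e and 1898 for Clec7a, and all these genes share the libraries and their spread. Trem2 was closest to Dcxr (0.928), Chil3 (0.915) and Maoa (0.912), with 4 genes above 0.9. Trem1 was closest to Ell2 (0.972), AA467197 (0.970) and Ggta1 (0.968), and Clec9a to Trove2 (0.992), Evl (0.989) and Shtn1 (0.988).

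With each genotype's mean taken out, the nearest genes were other ones for Trem1, Trem2 and Clec9a. They were Kitl, Zfp622 and Bckdha for Trem1 (0.970, 0.960 and 0.960), Mndal, Trim30d and Rtp4 for Trem2 (0.968, 0.952 and 0.920) and Acad11, Ddx41 and Orai3 for Clec9a (0.919, 0.904 and 0.882). Trem1 and Clec9a rest on few counts, so these values are loose. For Clec4e they were Rpl10-ps3, Il18 and Ociad1, all at 0.999 or above, and for Clec7a Mrps22, Snrpd3 and Polr2f.

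Downstream of the receptors, none of 31 tested genes of SYK and CARD9 signaling passed by edgeR with genotype only (3 at an unadjusted p under 0.05), with a median log2 fold change of 0.041. DESeq2 called 1 higher, and the block called 7 higher (Syk, Malt1, Plcg1, Prkcd, Fgr, Blnk and Pik3ap1) and 2 lower (Fyn and Lat2). Among all tested genes the block called 12.5%, so these calls describe single genes and are no result about the list. Syk, the kinase itself, given here after its values were seen, stood at 1169, 1235, 1016 and 865 CPM in Batf2-/- libraries 5 to 8, against 902, 1001, 851 and 654 CPM in WT libraries 1 to 4, higher in Batf2-/- at each table position, although the groups overlapped (edgeR adjusted p = 0.698, or 6.25e-04 with the block). Malt1, the protease of the complex, averaged 591 ± 38.1 CPM in Batf2-/- and 499.97 ± 28.2 CPM in WT without overlap (adjusted p = 0.554, or 0.00241 with the block). Fgr, a SRC-family kinase, averaged 90.6 ± 16.1 CPM in Batf2-/- and 70.3 ± 9.59 CPM in WT (adjusted p = 0.540, or 0.0459 with the block). Blnk, an adaptor best known from B cells, averaged 1.83 ± 1.12 CPM in Batf2-/- and 0.508 ± 0.240 CPM in WT (adjusted p = 0.145, or 0.00185 with the block). The summed level of 7 B cell markers was 0.573 to 1.14 CPM in Batf2-/- libraries and 0 to 0.279 CPM in WT libraries, and its part in the Blnk values was not tested.

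Among negative regulators of this signaling 0 of 13 tested genes passed by edgeR with genotype only or by DESeq2 (2 at an unadjusted p under 0.05), with a median of 0.059. The block, which called 12.5% of all tested genes, called 2 higher (Cbl and Trim29) and 2 lower (Csk and Ptpn6). Csk, the kinase that restrains SRC-family kinases, stood at 68.8, 61.4, 58.9 and 51.2 CPM in Batf2-/- libraries, against 84.3, 80.8, 77.6 and 70.1 CPM in WT libraries, without overlap (adjusted p = 0.273). Ptpn6, the SHP-1 phosphatase recruited by inhibitory receptors, averaged 536 ± 55.0 CPM in Batf2-/- and 659 ± 60.5 CPM in WT (adjusted p = 0.501).

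Of 15 tested receptors with an inhibitory tyrosine motif, 1 rose (Fcgr2b), 1 fell (Clec12a) and 13 did not pass, with a median log2 fold change of -0.00050. The block called 1 higher and 5 lower (Clec4a2, Clec12a, Cd300a, Pirb and Siglecf), beside 12.5% of all tested genes. DESeq2 called 1 higher and 3 lower. Fcgr2b, the inhibitory Fc gamma receptor, averaged 90.2 ± 13.6 CPM in Batf2-/- and 52.9 ± 5.37 CPM in WT (edgeR adjusted p = 0.0286), and its call was lost without any one of libraries 1, 2, 3, 5, 6 and 7 (adjusted p from 0.0547 to 0.0901). Cd300a, a receptor for lipids of dying cells, stood at 41.9, 55.6, 58.4 and 85.1 CPM in Batf2-/- libraries, against 103, 109, 118 and 164 CPM in WT libraries. The groups did not overlap and the gene did not pass (adjusted p = 0.0798, or 8.68e-06 with the block).

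Among 11 tested genes for other C-type lectins and collectins none passed with genotype only or in DESeq2 (1 at an unadjusted p under 0.05), with a median of 0.062. The block called 2 higher (Colec12 and Clec16a) and 1 lower (Klra2). Colec12, a scavenger receptor with a lectin domain, stood at 319.8 ± 21.4 CPM in Batf2-/- and 259 ± 26.0 CPM in WT without overlap (edgeR adjusted p = 0.417). Of 5 tested Fc receptor gamma-coupled receptors none passed with genotype only or in DESeq2 (0 at an unadjusted p under 0.05), with a median of -0.00010, and the block called 1 higher, Fcgr3.

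Of 12 tested genes on a list of candidate ligands 1 rose, Anxa6, and none fell, with a median of 0.192. The block called 2 higher (Anxa6 and S100a8) and 1 lower (Anxa1). Anxa6, a calcium-dependent membrane-binding annexin, had 106, 65.7, 73.8 and 90.5 CPM in Batf2-/- libraries, against 39.0, 43.5, 35.1 and 33.3 CPM in WT libraries. It was 2.23-fold higher (edgeR adjusted p = 0.0113) and did not pass once library 3 was removed (adjusted p = 0.0739). The heat shock gene Hspa1a averaged 2.22 ± 0.630 CPM in Batf2-/- and 1.19 ± 0.396 CPM in WT (adjusted p = 0.307), and S100a8 29.2 ± 11.8 CPM in Batf2-/- and 19.2 ± 6.98 CPM in WT (adjusted p = 0.699).

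A further list held genes of a programme linked to TREM2 in microglia, the macrophages of the brain. It is not limited to genes known to need TREM2. Of its 23 tested genes 0 passed by edgeR with genotype only, with a median of -0.040. At an unadjusted p under 0.05 there were 6, beside 8.50% of all tested genes, and no test was made of the list. The block called 2 higher (Cst7 and Timp2) and 3 lower (Lpl, Cadm1 and Csf1), beside 12.5% of all tested genes. DESeq2 called 2 lower. Lpl, lipoprotein lipase, had 1529.8 to 1826 CPM in Batf2-/- libraries and 2021 to 2358 CPM in WT libraries without overlap (edgeR adjusted p = 0.190, or 1.75e-04 with the block, and 0.00588 in DESeq2). Csf1 averaged 21.8 ± 7.33 CPM in Batf2-/- and 39.2 ± 7.34 CPM in WT, also without overlap (adjusted p = 0.273, or 0.00601 with the block and 0.00744 without libraries 4 and 8). In DESeq2 Csf1 did not pass (adjusted p = 0.057). Lpl and Csf1 each passed in 3 of 19 alternatives. The cystatin gene Cst7 averaged 2.50 ± 0.447 CPM in Batf2-/- and 1.60 ± 0.467 CPM in WT (adjusted p = 0.420). None of 4 tested genes of proteases and regulators linked to receptor shedding passed with genotype only or in DESeq2 (1 at an unadjusted p under 0.05), and the block called 1 higher, Mmp14. Of these Mmp14 stood at 139.9 ± 37.4 CPM in Batf2-/- and 103 ± 13.4 CPM in WT (adjusted p = 0.550).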

How the data were processed

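Poly(A) RNA of alveolar macrophages was sequenced from 8 pools of 4 mice with a stranded kit, per the labels' protocols. The authors deposited raw total counts per gene, per the file headers, and per the submitters' processing notes the build was GRCm38 (mm10). How reads were aligned and counted, and whether counting used strand, is not given in the sources used here. Column headings give the genotype but no replicate number, so libraries are numbered by column, and p-values measure the spread between pools. Counts were tested with edgeR 4.0.16 in R 4.3.3 (TMM scaling, default filter on low counts, robust quasi-likelihood fit with genotype only, Benjamini-Hochberg adjustment over 11083 genes, threshold 0.05). Alternatives used limma 3.58.1, DESeq2 1.42.0, other scalings, filters and covariates, and each library left out in turn. Intervals are 95%, and SE is the log2 fold change divided by the square root of F. RPKM used merged exons of GENCODE M21. Total counts of 31730041 to 39888022 set the precision, and members under 100 counts carry wide counting error. The code was tested on simulated counts with known changes.

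The members and lists were chosen with earlier results of these data known. All 9 members are named, with each list gene that passed. Otherwise the rule allowed up to 4 of a list with the smallest adjusted p. Some of these are not described, and Syk, Trem3, several markers and the genes called with table position as a block were named after their values were seen. The 3 genes most like each of 5 members are also given. The alternatives run for list genes were chosen after seeing the data. Amino acid sequences were not used here.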

Additional observations from a re-analysis of the deposited data

Results flagged for a closer look

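Fcgr2b had 110.5 CPM in library 5 of the Batf2-/- cells, far from the 82.8 to 84.3 CPM of the other 3 Batf2-/- libraries. S100a8 had 46.8 CPM in library 8 of the Batf2-/- cells, against 21.1 to 25.5 CPM in the other 3. Each was the highest of its 4 libraries by a gap that exceeded Dixon's 95% critical value, taking 0.943 of the range of its group for Fcgr2b and 0.830 for S100a8. These were 2 of 66 groups of 4 libraries examined, and chance gives about 1 in 20 groups. No member of the receptor set stood out in this way.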

How the results depend on the processing

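The 123 genes that passed (61 higher and 62 lower in Batf2-/-) became 336 with DESeq2 (207 and 129), 382 in limma-voom with library quality weights (236 and 146), 206 without libraries 4 and 8 (133 and 73) and 1390 with table position as a block (772 and 618). The causes were not tested. Leaving out single libraries gave 43 to 142 genes, with the fewest without library 3 (43), library 7 (59), library 2 (63), libraries 1 or 5 (76 each) and library 6 (77). Of the members, 1 or 2 passed when single libraries were left out, and 1 when at least 10 counts in every library were required, since Clec9a was then not tested. Trem1 passed in 17 of 19 alternatives, at log2 fold changes of 1.71 to 2.12 when single libraries were left out. Clec9a ranged from -3.48 to -3.16.

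Of the members, 5 near 0 changed sign when single libraries were left out, without passing: Clec4e (-0.214 to 0.216), Clec5a (-0.133 to 0.0467), Clec7a (-0.281 to 0.205), Clec4d (-0.0774 to 0.326) and Tyrobp (-0.1504 to 0.309). Clec4e was also 0.0205 without libraries 4 and 8. The columns carry no replicate number from the labels, so no replicate block could be taken from them. The paired fit by table position, with 1390 genes called, kept every member's call and changed the calls of 16 list genes named with values, each from not passing to passing. Low counts, 7 to 13 for Clec9a in Batf2-/- libraries and 16 to 30 for Trem1 in WT libraries, limit how closely their fold changes are known.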
